A study of Mus musculus with 3 samples.

Results

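The high-affinity IgE receptor was followed through its 3 subunit genes: Fcer1a (alpha chain), Ms4a2 (beta chain) and Fcer1g (gamma chain). They were chosen by gene name among the non-control spots of a whole-transcriptome array. Each was read by 1 probe printed once per array, so 3 of the 39429 probes, and 3 of 31069 named genes or transcripts, carry these results. Total RNA came from bone-marrow-derived mast cells (BMMCs), that is, mast cells differentiated in culture from bone marrow, of male 12-week-old mice on a C57BL/6 background that lack Pafah2, an enzyme that cuts oxidised fatty acyl chains off membrane lipids. All 3 cultures were thus Pafah2-deficient and no wild-type culture was included. For 12 h, 1 culture received DMSO as vehicle, 1 received 300 nM of omega-3 epoxides (17,18-EpETE and 19,20-EpDPE, mixed 2 to 3), and 1 received 0.5 µM GW9662, which blocks the nuclear receptor PPAR gamma. The labels name no IgE or antigen stimulus and do not say whether animals were pooled. There was 1 array per group, so no test between groups was possible, and every difference below is a difference between 2 arrays.

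The receptor binds the constant region of IgE with its alpha chain, which lies outside the cell, and signals through its other chains. The beta chain, a membrane-spanning protein of the MS4A family, and the disulphide-linked gamma chains carry immunoreceptor tyrosine-based activation motifs (ITAMs), which the kinases Lyn and Syk phosphorylate and bind after antigen crosslinks the bound IgE. The beta chain amplifies the signal and helps bring the receptor to the surface, and in mice it is needed for surface expression. The gamma chain also serves IgG receptors and several lectin and immunoglobulin-like receptors of myeloid cells. Mast cells and basophils are the main cells that carry the complete receptor.

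Which treated array had which treatment is not certain. The epoxide column of the authors' value table equals the scanner file of the GW9662 sample divided by a constant, and the reverse holds for the GW9662 column, in 100% of non-control spots within a tolerance of 0.001. Each array keeps here the name of the sample that its scanner file belongs to. If the value table is right, each value given for 1 treated array belongs to the other treatment.

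All probes were 60 bases long and lay on the reverse strand in mm9. The Fcer1a probe covers chr1:175151438-175151497 (transcript NM_010184), the Fcer1g probe chr1:173159794-173159853 (NM_010185) and the Ms4a2 probe chr19:11691701-11691760 (NM_013516). The array design places their starts at bases 930, 507 and 1008 of the transcripts, and each span is ungapped, so no probe crosses a splice junction in that build. Exon and UTR boundaries in mm9 were not used here. The last 30 bases of each probe are shown, 5′ to 3′, because the values of the subunits are read from these probes. Capitals mark the sequence AATAAA, the form of the common polyadenylation signal, which ends the Fcer1a probe.
Fcer1a: actgcagctggttatgtaacatgcAATAAA
Ms4a2: tctggaaagtcatcaaggaataagttggct
Fcer1g: ctgacatttctcttcttccagcctcctttg
G and C made up 35.0% of the bases of the Fcer1a and Ms4a2 probes and 46.7% of the Fcer1g probe.

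The 250 bases before each start site (RefSeq, GRCm38.p6, reverse strand) are shown because 2 of these genes had ratios of 1 sign and 1 had the other sign on the same array. Capitals mark GATA motifs, the letters bound by the mast cell factors Gata1 and Gata2: AGATAA, also with T as its first or G as its last letter, on either strand. The windows are chr1:173227230-173227479 for Fcer1a, chr19:11623720-11623969 for Ms4a2 and chr1:171234350-171234599 for Fcer1g.
Fcer1a: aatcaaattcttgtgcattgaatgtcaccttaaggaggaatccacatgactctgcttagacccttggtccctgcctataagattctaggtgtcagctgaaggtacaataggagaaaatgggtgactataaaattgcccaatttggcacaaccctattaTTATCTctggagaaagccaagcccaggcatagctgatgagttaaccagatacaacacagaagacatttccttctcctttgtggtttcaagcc
Ms4a2: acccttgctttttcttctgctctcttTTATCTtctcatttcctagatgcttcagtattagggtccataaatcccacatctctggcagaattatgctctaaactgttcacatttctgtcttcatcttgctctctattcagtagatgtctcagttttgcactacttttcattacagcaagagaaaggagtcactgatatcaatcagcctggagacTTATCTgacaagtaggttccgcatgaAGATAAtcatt
Fcer1g: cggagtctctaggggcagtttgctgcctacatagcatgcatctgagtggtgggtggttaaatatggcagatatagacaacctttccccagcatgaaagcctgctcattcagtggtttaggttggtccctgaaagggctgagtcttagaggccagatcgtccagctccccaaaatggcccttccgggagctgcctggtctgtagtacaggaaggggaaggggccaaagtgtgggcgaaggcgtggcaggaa
The Fcer1a window held 1 GATA motif, starting at position -92, the Ms4a2 window held 3, at positions -224, -37 and -11, and the Fcer1g window held 0. Of 32851 RefSeq promoter windows of the same length, 26.5% held at least 1. The ETS letters AGGAA (either strand), which PU.1 and related factors bind, occurred 2 times for Fcer1a, 1 time for Ms4a2 and 2 times for Fcer1g, and 60.3% of all windows held them. E-box letters (CANNTG) occurred 2, 0 and 1 times, against 66.2% of all windows with at least 1. No GATA match overlapped an ETS or E-box match. A match describes letters only and shows no binding. Whether any of these letters has a part in the signs of the ratios was not tested.

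On each array 43020 non-control spots were read, of which 52.3% to 54.6% were well above background. All 9 member readings were well above background, none was saturated and none was marked as an outlier. The mean signal of these spots was between 1128 and 10316 times the local background. The cells carried mast cell RNA: 9 of 10 mast cell markers were well above background on every array, among them Kit, the receptor for stem cell factor, at a level of 5.73 with vehicle. Tpsab1 was not above background. Of 5 basophil markers 3 were above background on every array (Cd200r3, Mcpt8 and Prss34), while Itga2 and Cebpa were not. On the log2 scale the summed basophil level was 3.70 with vehicle, 3.67 on the epoxide array and 3.68 on the GW9662 array. That sum came mostly from 1 gene, Cd200r3, with levels of 3.26, 3.22 and 3.29 in the same order. Of the eosinophil markers 1 of 5 was above background on every array, and of the neutrophil markers, 2 of 6 with vehicle and 3 of 6 on both treated arrays. On every array 4 of 6 macrophage markers, 3 of 5 markers of megakaryocytes and platelets and 2 of 5 dendritic cell markers were above background. In bulk RNA, fewer cells of a type and less RNA per cell cannot be told apart.

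Fcer1a, the chain that binds IgE, was among the brightest signals. Its processed signal was 233943 with vehicle, 223602 on the epoxide array and 227609 on the GW9662 array. These raw readings lay close together, with log2 ratios to vehicle of -0.065 for epoxides and -0.040 for GW9662. The 75th percentile of the arrays did not: it was 1916 with vehicle, 2316 on the epoxide array and 2004 on the GW9662 array, a shift of 0.27 and 0.065 on the log2 scale. Levels are therefore given as log2 of the signal over the 75th percentile of the array, where 0 is the 75th percentile. On that scale Fcer1a had 6.93 with vehicle, 6.59 on the epoxide array and 6.83 on the GW9662 array, so that the epoxide array was lowest and vehicle highest.

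Ms4a2, the signal-amplifying beta chain, had processed signals of 24106 with vehicle, 31107 on the epoxide array and 26011 on the GW9662 array. Here the raw reading of the epoxide array was the highest, at a log2 ratio of 0.37 to vehicle, against 0.11 for GW9662. After scaling, the levels were 3.65 with vehicle, 3.75 on the epoxide array and 3.70 on the GW9662 array. The order of the arrays was the reverse of that for Fcer1a, within a narrow range.

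Fcer1g, the signalling gamma chain, had processed signals of 165008 with vehicle, 153579 on the epoxide array and 165500 on the GW9662 array. Vehicle and GW9662 were nearly equal before scaling, at a log2 ratio of 0.0043, and the epoxide array was lower, at -0.10. Scaled levels were 6.43 with vehicle, 6.05 on the epoxide array and 6.37 on the GW9662 array. As for Fcer1a, the epoxide array read lowest. Levels come from a different probe for each gene and do not rank the genes by amount of RNA.

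**Figure D1:**
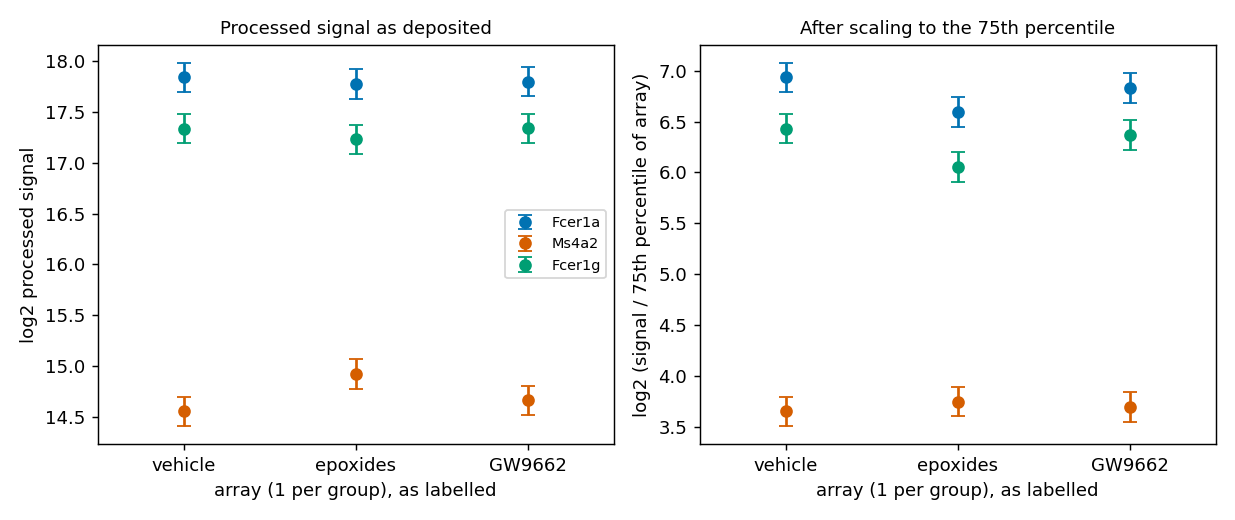
Signals of the 3 subunit genes on each array, as log2 of the deposited processed signal (left) and as log2 of the signal over the 75th percentile of the array (right). Points are single spots and bars are the error that Feature Extraction assigned to the spot (0.14 on the log2 scale). Before scaling Fcer1a is nearly level and Ms4a2 is highest on the epoxide array (14.9 against 14.6 with vehicle), and after scaling Fcer1a and Fcer1g are lowest there.

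The first comparison asked whether omega-3 epoxides go with a different amount of receptor subunit RNA. The ratio of Fcer1a on the epoxide array over vehicle was -0.34 (1.26-fold), that of Fcer1g was -0.38 (1.3-fold) and that of Ms4a2 was 0.094 (1.07-fold). The SD among copies of a probe on the same array was taken, without outlier spots, for 219 other probes with at least 5 copies. The median of these SDs on each array gives a technical SD of 0.0821 for such a ratio. It covers spot error only, not the error between cultures or labellings. Fcer1a lay 4.13 of these SDs from 0, Fcer1g 4.60 and Ms4a2 1.15. The wider error that Feature Extraction assigned to each spot, 10% of the signal, gives 0.20 for a ratio. None of the members reached 2-fold, a size that 0.215% of the 15812 genes measured on both arrays reached upward and 2.07% downward. As many as 19.1% of all genes had a ratio at or below that of Fcer1a and 16.5% at or below that of Fcer1g, while 75.4% were at or below Ms4a2. The ratios of Fcer1a and Fcer1g depended on the scaling: Fcer1a came to -0.043 with quantile normalization, -0.14 with cyclic loess and -0.065 without scaling, and Fcer1g to -0.13, -0.20 and -0.10. Ms4a2 came to 0.17, 0.19 and 0.37. With the 75th percentile taken over detected probes, Fcer1a had -0.31, Fcer1g -0.35 and Ms4a2 0.12. The signs were the same in every setting run. The 2-fold calls over all genes were 34 higher and 327 lower, and were 64 and 137 with quantile normalization, 57 and 175 with cyclic loess, 61 and 117 with a trend in probe GC content and signal removed, and 117 and 116 without scaling. With probes outside the middle band of rows described below, they were 14 and 121 among 9927 genes.

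The summed level of mast cell markers was also lower on the epoxide array. On the log2 scale and without the subunits, it was 9.43 with vehicle, 9.13 on the epoxide array and 9.30 on the GW9662 array. The brightest markers weigh most in such a sum, and the 75th percentile used for scaling was itself 0.27 higher on the epoxide array than with vehicle. The median ratio of the measured markers on the epoxide array was -0.083, near the -0.073 over all genes. Of the 9 measured markers 8 had negative ratios on the epoxide array, as did 61.1% of all genes. Farthest from 0 were Cpa3, the mast cell carboxypeptidase, at -0.68 and Cma1, a chymase, at -0.39. The rest lay between -0.25 and 0.099, with Kit at -0.047. The summed neutrophil level was 0.81, 0.32 and 0.89 in the order vehicle, epoxides and GW9662. It came mostly from 1 gene, Elane, with levels of 0.73, 0.22 and 0.66. Only 2 of the 6 neutrophil markers were measured on both the epoxide array and vehicle. The part of either marker list in the receptor ratios was not tested.

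The subunits differed from each other on the epoxide array, a contrast in which any single scaling factor for the array cancels. The ratio of Fcer1a minus that of Ms4a2 was -0.43, and that of Fcer1g minus that of Ms4a2 was -0.47, each with a technical SD of 0.12. Fcer1a and Fcer1g differed from each other by 0.038, which is less than that SD. The gap between Fcer1a and Ms4a2 was narrower with methods that act on signal strength: it was -0.32 with cyclic loess, -0.21 after quantile normalization and -0.19 after removal of a trend in GC content and signal. The gap between Fcer1g and Ms4a2 was -0.38, -0.30 and -0.088 with the same methods.

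Bright spots as a class had lower ratios on the epoxide array. Fcer1a ranked 86 by mean level among the genes measured in this comparison, Fcer1g ranked 299 and Ms4a2 ranked 2070. Over the brightest 1% of genes, which holds Fcer1a, the median ratio was -0.32. Over the brightest of 10 signal classes, which holds Fcer1a and Fcer1g, it was -0.20, with quartiles of -0.31 and -0.073. In the class below, which holds Ms4a2, it was -0.045, and over all genes -0.073. Spike-in RNAs, read by 32 copies of each probe, gave -0.36 for the brightest (a level of 7.41 with vehicle) and -0.14 for the next (6.04), the pair whose levels flank those of Fcer1a and Fcer1g. The spike-in nearest to Ms4a2 (3.60) gave 0.043. Spike-ins dimmer than that had ratios on both sides of 0, from 0.089 (-4.86) to -0.83 for the dimmest (-6.74). Relative to the brightest spike-in Fcer1a stood at 0.017 and Fcer1g at -0.022, and relative to the next at -0.20 and -0.24. The part of signal strength in both ratios was not tested.

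Ratios were also lower for probes richer in G and C (r = -0.48 over 15812 genes; genes are not independent replicates). Genes read by probes of the same GC content as those of Fcer1a and Ms4a2 had a median of 0.11, and those with the GC content of the Fcer1g probe had -0.19. Among genes of the same signal class whose probes were within 2.5 percentage points of the GC content of the member, the median was -0.069 for Fcer1a (391 genes), 0.073 for Ms4a2 (528 genes) and -0.25 for Fcer1g (496 genes). Relative to such genes Fcer1a stood at -0.27, Fcer1g at -0.13 and Ms4a2 at 0.021. Positions on the slide differed too. Fcer1a was printed at row 425 in the first column, and Fcer1g (row 382) and Ms4a2 (row 222) lay in the middle band of rows (ending at row 400 of 532), where 7.69% of the copies of repeated probes differed at least 2-fold from their median copy, against 0.589% elsewhere. The technical SD, a median over probes, gives little weight to such copies. The median ratio of the surrounding spots above background, within 10 rows and columns, was -0.091 for Fcer1a, -0.12 for Fcer1g and -0.063 for Ms4a2.

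**Figure D2:**
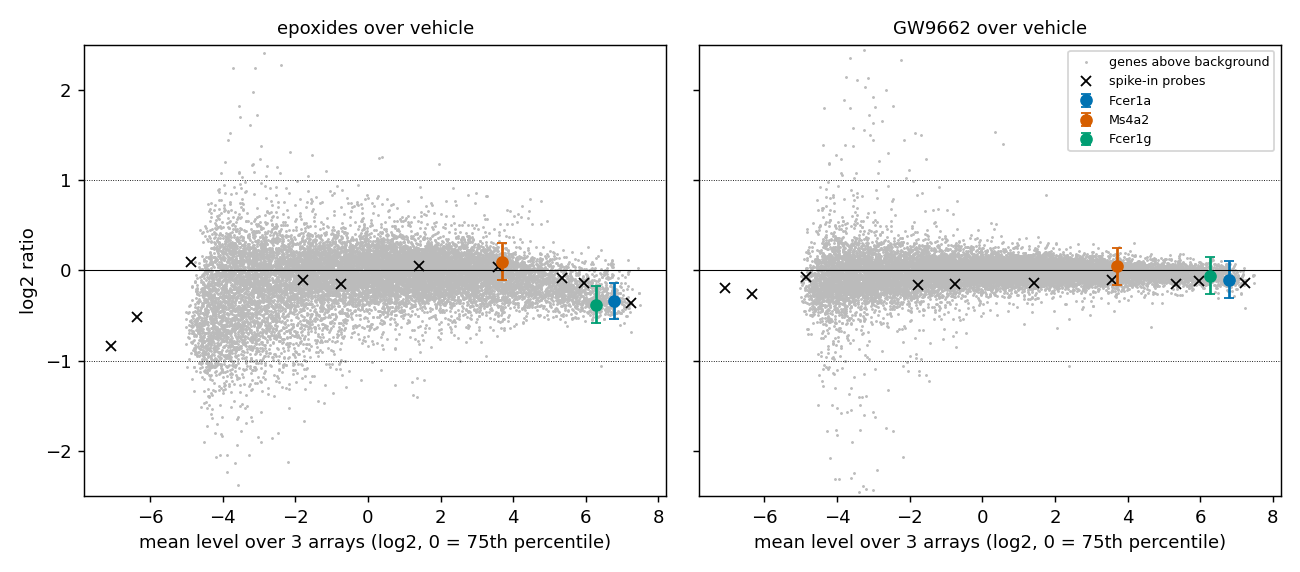
Log2 ratios to vehicle against the mean level over the 3 arrays for genes above background on all arrays (grey), spike-in probes (crosses) and the receptor subunits (coloured, bars as the Feature Extraction error of a ratio, 0.20), with dotted lines at 2-fold; genes beyond 2.5 are outside the frame. On the left Fcer1a (-0.34) and Fcer1g (-0.38) lie in the downward bend of the brightest genes, at levels between those of the spike-ins at -0.36 and -0.14, and on the right all subunits lie between -0.10 and 0.045.

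The second comparison asked the same of the PPAR gamma antagonist. On the GW9662 array the ratio to vehicle was -0.10 for Fcer1a, -0.061 for Fcer1g and 0.045 for Ms4a2. These were 1.28, 0.74 and 0.55 technical SDs (0.0818) from 0. None reached 2-fold, which 0.355% of 15795 genes did upward and 0.469% downward. These were 56 and 74 genes, and with probes outside the middle band of rows alone the counts were 3 and 0 among 9924 genes. Of all genes, 39.5% were as far from 0 as Fcer1a, 61.0% as far as Fcer1g and 70.5% as far as Ms4a2. The brightest 1% of genes had a median of -0.075 and the spike-ins flanking Fcer1a and Fcer1g had -0.14 and -0.12. Every spike-in, bright or dim, had a negative ratio on this array, from -0.26 to -0.078. Fcer1g was positive without scaling (0.0043) and after removal of the trend in GC content and signal (0.015). No subunit had a ratio to vehicle on this array beyond 1.3 technical SDs, and with 1 array a difference between cultures of this size could not be judged.

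In the third comparison the treated arrays were set side by side. The epoxide array had ratios over the GW9662 array of -0.23 for Fcer1a, -0.32 for Fcer1g and 0.049 for Ms4a2, with a technical SD of 0.0786. None reached 2-fold, against 0.206% of 16044 genes upward and 0.954% downward. The counts were 33 higher and 153 lower, and became 55 and 87 with quantile normalization, 54 and 99 with cyclic loess, 57 and 85 with the trend removed and 69 and 89 without scaling. Without the middle rows, and so among fewer genes, they were 11 and 16. Fcer1a minus Ms4a2 was -0.28 and Fcer1g minus Ms4a2 was -0.37. Because this ratio is the difference of the comparisons with vehicle, which share the vehicle array, it is no separate reading. With the columns as named in the value table the signs turn, to 0.23 for Fcer1a, 0.32 for Fcer1g and -0.050 for Ms4a2.

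**Figure D3:**
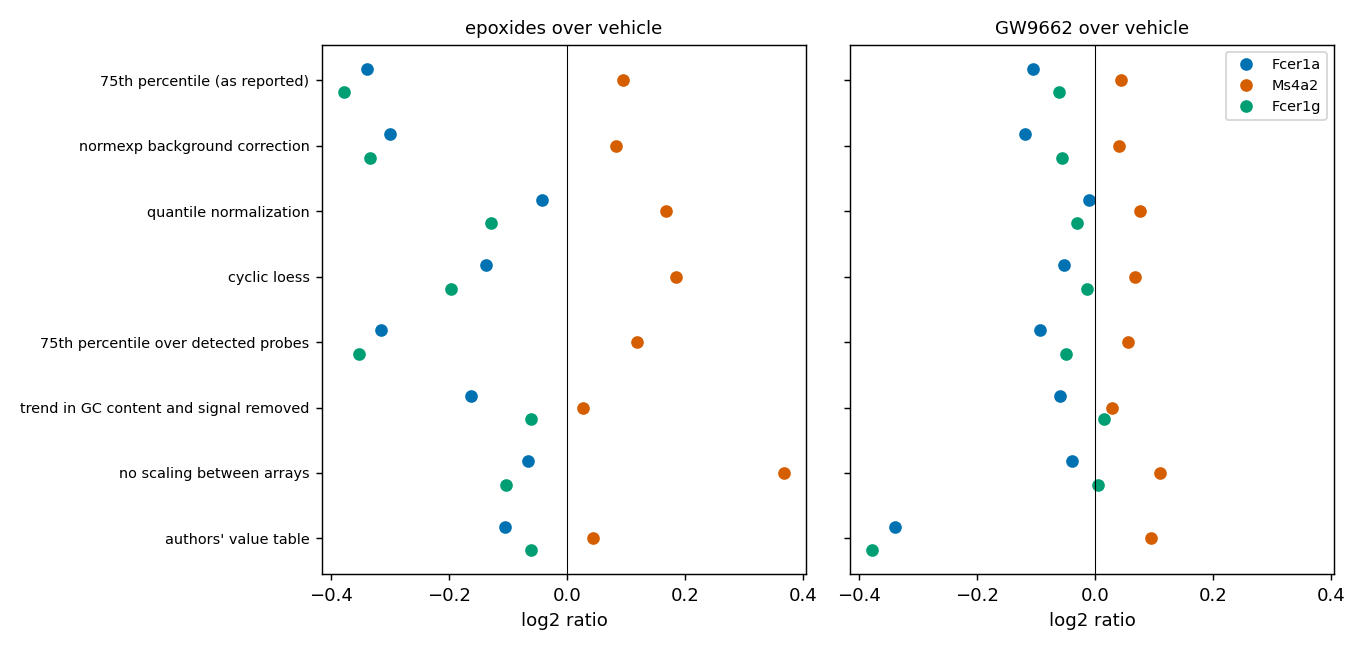
Log2 ratios to vehicle of the receptor subunits under each way of scaling the arrays, for epoxides (left) and GW9662 (right). On the left Fcer1a runs from -0.34 to -0.043, Fcer1g from -0.38 to -0.061 and Ms4a2 from 0.027 to 0.37, so the order of Ms4a2 above both others held in each setting drawn; with the authors' value table the larger gap moves to the GW9662 panel.

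Genes with the most similar course over the 3 arrays were sought among 6515 genes with a level of at least 0, by the Euclidean distance between levels after the mean of each gene was subtracted. Nearest to Fcer1a were Vegfb (0.0026), Tmem215 (0.0033) and Lrp10 (0.0039), and Fcer1g lay at 0.058. Nearest to Fcer1g were Rpl38 (0.0077), a ribosomal protein, Kctd14 (0.0083) and Nrtn (0.0098). Nearest to Ms4a2 were Glud1 (0.0013), a mitochondrial dehydrogenase of glutamate, Itch (0.0014), a ubiquitin ligase, and Fam133b (0.0017), while Fcer1a and Fcer1g lay at 0.31 and 0.35. With only 3 arrays such courses are common: 970 genes (14.9%) lay within 0.1 of Fcer1a, 562 (8.63%) of Fcer1g and 2426 (37.2%) of Ms4a2.

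Other receptors that use the gamma chain or bind immunoglobulin had ratios on both sides of 0. Of 15 such genes 8 were measured on the epoxide array and vehicle, 6 with negative ratios (61.1% of all genes had one), and the median was -0.21 against -0.073 over all genes, or 0.060 against 0.20 without scaling, which shifts all ratios of an array. On the GW9662 array 5 of 9 were negative (57.8% of all genes), with a median of -0.017 against -0.022. That median was -0.23 in the authors' value table and between -0.017 and 0.048 in the other settings run. For the value table, calls above background were still those of the named sample's scanner file. Its -0.23 thus pairs values of 1 treated array with calls of the other. The genes farthest from 0 were Fcer2a, the low-affinity IgE receptor CD23, a dim signal with levels of -3.84, -4.67 and -4.03 in the order vehicle, epoxides and GW9662, and ratios of -0.84 and -0.19; Oscar, a gamma chain partner of osteoclasts and myeloid cells, at -0.61 and -0.14; and Clec4d, a C-type lectin receptor, at -0.051 and 0.27. Ncr1, a receptor of natural killer cells, was not well above background on the epoxide array and had 0.48 on the GW9662 array. Its level with vehicle was at least 6.49-fold higher than the epoxide array allows, when the dimmer array is set at its lowest level called well above background, from a spot in the middle band of rows. Fcgr1, the high-affinity IgG receptor, was well above background only with vehicle, at least 2.06-fold higher than the epoxide array allows and 1.42-fold higher than the GW9662 array allows. Fcgr3, an activating IgG receptor that shares the gamma chain, had levels of 1.1, 0.86 and 1.0.

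Of 7 other ITAM subunits 2 were measured on both arrays of each comparison. Tyrobp, the adaptor DAP12, had levels of 5.79, 5.53 and 5.72, with ratios of -0.26 for epoxides and -0.067 for GW9662. Cd3e, a T cell receptor subunit, had -0.31, -1.40 and -0.61, so that its ratio of -1.09 on the epoxide array was the only 2-fold difference in these lists among genes measured on both arrays. Cd79a, a B cell receptor subunit, was well above background only on the GW9662 array, where it was at least 8.41-fold higher than vehicle allows and 13.9-fold higher than the epoxide array allows. These values come from the brighter of its 2 probes, printed in the middle band of rows, and the other probe is not given here. Of 15 further MS4A genes 4 were measured, 3 with positive ratios on the epoxide array and all 4 on the GW9662 array, with medians of 0.18 and 0.13 that were positive in every setting. Over all genes 61.1% and 57.8% had negative ratios, with medians of -0.073 and -0.022. A list of 4 measured genes does not describe the family. Ms4a4c had levels of 4.0, 4.60 and 4.06 and ratios of 0.60 and 0.052. Its other probes were not above background on any array. Ms4a3, a gene of basophils and granulocyte precursors, had 0.18 and 0.20, Ms4a6d 0.17 and 0.049, and Ms4a7 -0.11 and 0.27.

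Of 28 genes of proximal receptor signalling 27 were measured, 15 with positive and 12 with negative ratios on each treated array, and none reached 2-fold. The medians were 0.014 for epoxides and 0.023 for GW9662, against -0.073 and -0.022 over all genes, but were slightly negative when detected probes were averaged (-0.00058 and -0.0084) and, for epoxides, with normexp (-0.0011). Csk, the kinase that inhibits Lyn and Fyn, was farthest from 0 with levels of 1.0, 1.60 and 1.24 and ratios of 0.60 and 0.24. Grap2, the adaptor Gads, had 0.39 and 0.20, with a second probe at 0.18 and 0.47. Lcp2, the adaptor SLP-76, had -0.077 and 0.38. Lyn, which phosphorylates the ITAMs of the beta and gamma chains, had levels of -1.03, -0.73 and -0.997, and Syk, which binds them, had 1.97, 1.98 and 1.89.

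All 12 transcription factors tied to the receptor genes were measured. On the epoxide array 7 had negative ratios, with a median of -0.038, and on the GW9662 array 8 did, with a median of -0.049, against 61.1% and 57.8% of all genes and medians of -0.073 and -0.022, and none reached 2-fold. The median was positive for epoxides with cyclic loess (0.046) and quantile normalization (0.028), and on both treated arrays without scaling (0.24 and 0.016). Runx1 had levels of 3.06, 2.45 and 2.72 and ratios of -0.61 and -0.34, which its second probe (0.027 and -0.015) did not share. Spi1, which encodes PU.1, had -0.35 and -0.27, and Zfpm1, the Gata1 partner FOG-1, had -0.30 and -0.20, with its other probes also negative. Elf1, an ETS factor, had 0.25 and 0.11, and its second probe had -0.15 and 0.062. Gata2 had levels of 5.47, 5.25 and 5.39, and Gata1 had 4.86, 4.80 and 4.72. Probes of Oscar, Ncr1, Fcgr1, Fcgr3, Cd79a, Ms4a7, Ms4a6d, Lcp2, Spi1 and Zfpm1 were printed in the middle band of rows, with those of Itch, Fam133b, Kctd14 and Nrtn named above, as were those of Ms4a2 and Fcer1g. The probes of the markers Kit, Elane and Prss34 lay there too, as did the other probes cited for Grap2, Elf1 and Zfpm1.

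**Figure D4:**
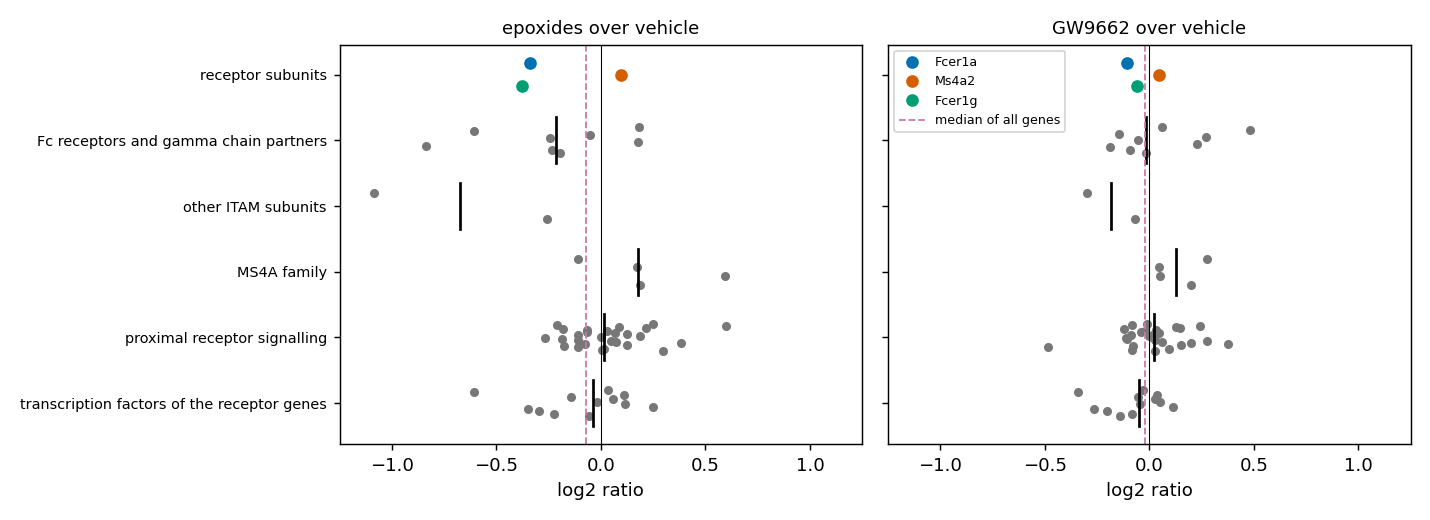
Log2 ratios to vehicle of the receptor subunits and of measured genes in 5 related lists (grey points, black bars are list medians), for epoxides (left) and GW9662 (right), with the median of all genes dashed. Signalling genes are centred near 0 on both sides (medians 0.014 and 0.023), while on the left Fcer1a and Fcer1g lie at -0.34 and -0.38 and Cd3e is the point beyond -1. Listed genes were not matched to the subunits in signal level, and the brightest genes had lower ratios on the epoxide array.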

How the data were processed

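The 3 arrays (1 per group, 200 ng of total RNA per labelling) were processed in Agilent Feature Extraction 11.5.1.1, according to the submitters' processing notes. Per the file headers, the processed signal is a linear intensity after background subtraction and spatial detrending, with no scaling across arrays. The value table deposited by the authors holds a linear ratio, the processed intensity over the 75th percentile of the array. Coordinates of probes are in mm9, as the files give them.

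From log2 processed signals, the log2 of each array's 75th percentile (non-control spots) was subtracted. Outlier spots were dropped and copies of a probe averaged. Probes were named through RefSeq accessions, and otherwise by the file's name. A gene was read by its brightest probe, taken as measured where over 50% of its copies exceeded background clearly on both arrays, and called at 2-fold. Named genes were the subunits, up to 4 members of each of 5 lists with the largest ratio to vehicle, and the 3 genes most like each subunit. Lyn, Syk, Fcgr3, Gata1 and Gata2 were added for their role, and Fcgr1, Cd79a, Cpa3, Cma1 and Elane for their values, after these were seen. A gene that this rule names is not reported here. Alternatives were normexp (offset 50, limma 3.58.1, R 4.3.3), quantile, cyclic loess, other scalings and probe rules, and the value table. Leaving the arrays unscaled was added after the data were seen. Calling was tested on simulated data. The members and lists were chosen with earlier results of these data known. The number of arrays limits the precision.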

Additional observations from a re-analysis of the deposited data

How the results depend on the processing

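For epoxides over vehicle, Fcer1a had -0.043 with quantile normalization, -0.14 with cyclic loess, -0.16 after removing a trend in GC content and signal, -0.10 in the authors' value table and -0.065 without scaling. Fcer1g had -0.13, -0.20, -0.061, -0.061 and -0.10 in the same order. Ms4a2 had 0.19 with cyclic loess and 0.37 without scaling. For GW9662 over vehicle, Fcer1a had -0.011 with quantile normalization, and the value table gave -0.34 for Fcer1a and -0.38 for Fcer1g. For epoxides over GW9662, Fcer1a had -0.032 with quantile normalization, -0.084 with cyclic loess, -0.10 with the trend removed, 0.23 in the value table and -0.026 without scaling. Fcer1g had -0.098, -0.18, -0.076, 0.32 and -0.11, and Ms4a2 had -0.050 in the value table and 0.26 without scaling. The value table turns these signs because its treated columns and the scanner files are exchanged relative to each other; the cause of the other changes was not tested. The other ratios of single subunits moved by less than 1 technical SD, though Fcer1g on the GW9662 array was positive with the trend removed (0.015) and without scaling, and Ms4a2 for epoxides over GW9662 was -0.0026 with the trend removed. Differences between subunits moved too: Fcer1a minus Fcer1g for epoxides over vehicle was 0.038 and became -0.10 with the trend removed. For epoxides over GW9662, Fcer1a minus Ms4a2 became -0.12 with quantile normalization and -0.10 with the trend removed, and Fcer1g minus Ms4a2 became -0.19 and -0.073. Ms4a2 and Fcer1g have no probe outside the middle band of rows, which ends at row 400.

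Counts of genes at least 2-fold apart ran over all settings from 14 to 590 higher (34 as reported) and 111 to 2366 lower (327) for epoxides over vehicle, from 3 to 969 (56) and 0 to 1077 (74) for GW9662 over vehicle, and from 11 to 570 (33) and 16 to 1852 (153) for epoxides over GW9662. The highest came with no filter on dim probes and the lowest, except for 111 (the value table), without the middle rows. Counts from the value table, the 111 among them, kept the background and outlier calls of the named sample's scanner file. They thus pair values of each treated array with calls of the other. No paired analysis was possible because each group holds 1 array.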
